A study of Rattus norvegicus with 10 samples.

Results

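The genes described here make cholesterol or regulate its synthesis in rat liver, and the label for them also takes in cholesterol uptake. They were chosen by name from a list of 8 genes. A gene counted as measured where the array annotation gave a probe set that symbol alone, and all such probe sets were kept. This gave 7 of 8 genes and 11 probe sets, out of 14217 named genes and 31042 probe sets on the arrays. Hmgcs1, which makes HMG-CoA from acetyl-CoA, was not analysed here. Liver RNA came from 10 male Sprague-Dawley rats, an outbred strain, with 1 array per animal. The labels call 5 animals controls and say no more of them, and the other 5, the exposed animals, had short contact with effluent of bulk drug factories. The labels give no age, dose, route or length of exposure. Values are log2 expression per probe set, on a scale where a difference of 1 is a doubling.

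Cells build cholesterol from acetyl-CoA through mevalonate, isoprenoid units and squalene to the sterol ring. The transcription factor SREBP2, the product of Srebf2, switches on most genes of this route when sterols in the membrane of the endoplasmic reticulum run low. INSIG1 holds the SREBP-SCAP complex in that membrane when sterols are plentiful, and its own gene is a target of SREBP. In liver the pathway also answers to feeding, to insulin and to the return of bile acids.

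The arrays showed liver, with albumin at 14.99 ± 0.01 in both groups (SD, n = 5 each). The medians of the arrays ranged from 5.43 to 5.49, and r between 2 arrays from 0.991 to 0.996 over probe sets. Over all 31042 probe sets, limma called 0 (0% of those tested) between exposed and control livers at an adjusted p of 0.05, with 1695 (5.46%) at an unadjusted p under 0.05. In whole liver, fewer cells of a type and less RNA per cell cannot be told apart.

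Promoter windows of 4 of these genes are shown. Idi1 and Fdps had an r of 0.81 between animals, and Lss had a negative r with both. Neither result passed adjustment, and that of Lss rested in large part on control animal 4. Srebf2 codes for the regulator of the others. The windows come from RefSeq, assembly GRCr8, and run from 250 bases before to 50 bases after an annotated start, 5′ to 3′ in the direction of the gene. Of the 7 measured genes, 6 had a window in the table used. Idi1 is at chr17:66547475-66547774 (minus strand), Fdps at chr2:176804767-176805066 (minus strand), Lss at chr20:12118181-12118480 (minus strand) and Srebf2 at chr7:115543057-115543356 (plus strand). Capitals mark CCAAT on either strand, the core of NF-Y sites, and in Srebf2 also TCACCCCA, letters found within the classical sterol regulatory element.
Idi1: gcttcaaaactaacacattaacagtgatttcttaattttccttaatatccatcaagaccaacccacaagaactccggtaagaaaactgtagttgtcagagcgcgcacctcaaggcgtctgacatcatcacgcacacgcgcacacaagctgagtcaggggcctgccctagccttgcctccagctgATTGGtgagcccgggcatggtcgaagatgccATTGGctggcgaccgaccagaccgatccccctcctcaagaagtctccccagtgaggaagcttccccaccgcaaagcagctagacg
Fdps: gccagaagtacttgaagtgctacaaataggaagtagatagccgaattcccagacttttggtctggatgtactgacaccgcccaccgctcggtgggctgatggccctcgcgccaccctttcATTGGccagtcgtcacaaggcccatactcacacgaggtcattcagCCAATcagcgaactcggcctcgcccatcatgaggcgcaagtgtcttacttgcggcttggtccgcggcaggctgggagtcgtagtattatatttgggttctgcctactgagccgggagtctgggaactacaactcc
Lss: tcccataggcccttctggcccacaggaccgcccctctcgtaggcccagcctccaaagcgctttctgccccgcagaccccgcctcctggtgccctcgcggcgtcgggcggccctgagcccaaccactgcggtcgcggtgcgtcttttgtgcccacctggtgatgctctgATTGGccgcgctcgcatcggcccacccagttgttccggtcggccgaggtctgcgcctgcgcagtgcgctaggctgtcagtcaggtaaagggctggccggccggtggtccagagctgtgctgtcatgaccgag
Srebf2: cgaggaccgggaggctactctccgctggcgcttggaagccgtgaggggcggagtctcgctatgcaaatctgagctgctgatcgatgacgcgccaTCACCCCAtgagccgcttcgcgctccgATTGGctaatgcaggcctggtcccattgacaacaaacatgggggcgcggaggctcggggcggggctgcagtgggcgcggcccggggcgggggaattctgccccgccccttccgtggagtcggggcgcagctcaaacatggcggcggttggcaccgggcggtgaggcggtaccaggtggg
CCAAT was found in 5 of the 6 windows, against 37.5% of all 33469 promoter windows of 300 bases, and was missing from that of Cyp51. GGGCGG, the core of Sp1 sites, was in 5 of 6, against 33.1%. The element TCACNCCAC was in 0 of 6 windows, against 1.12%, and the shorter CACNCCAC, whose matches take in those of the longer form, only in that of Insig1, against 5.80%. The E-box CACGTG was also found in Insig1 alone, against 6.42%. All motifs were searched on both strands. TCACCCCA, searched after the windows had been read, began 156 bases before the start in Srebf2 and was in 1.37% of all windows. The start used for Srebf2 lies inside the annotated span of the gene, so another transcript start may apply and the position would then differ. These matches describe letters in a window and were not tested as binding sites.

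For each of the 7 genes but Srebf2, the SD between animals within groups exceeded the size of the difference between groups. For Srebf2 the SD was 0.21 and the difference 0.24. An SD of single animals and a difference of group means are unlike measures. The 7 genes varied within groups with a median SD of 0.41, against 0.13 over all genes. Of the 11 probe sets, 8 had an SD above that of 90% of probe sets on the arrays. The median size of the difference between groups was 0.13 for the 7 genes and 0.06 for all genes. Exposed livers were higher for 4 genes and lower for 3, with a median difference of 0.00, as over all genes (0.00).

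**Figure D1:**
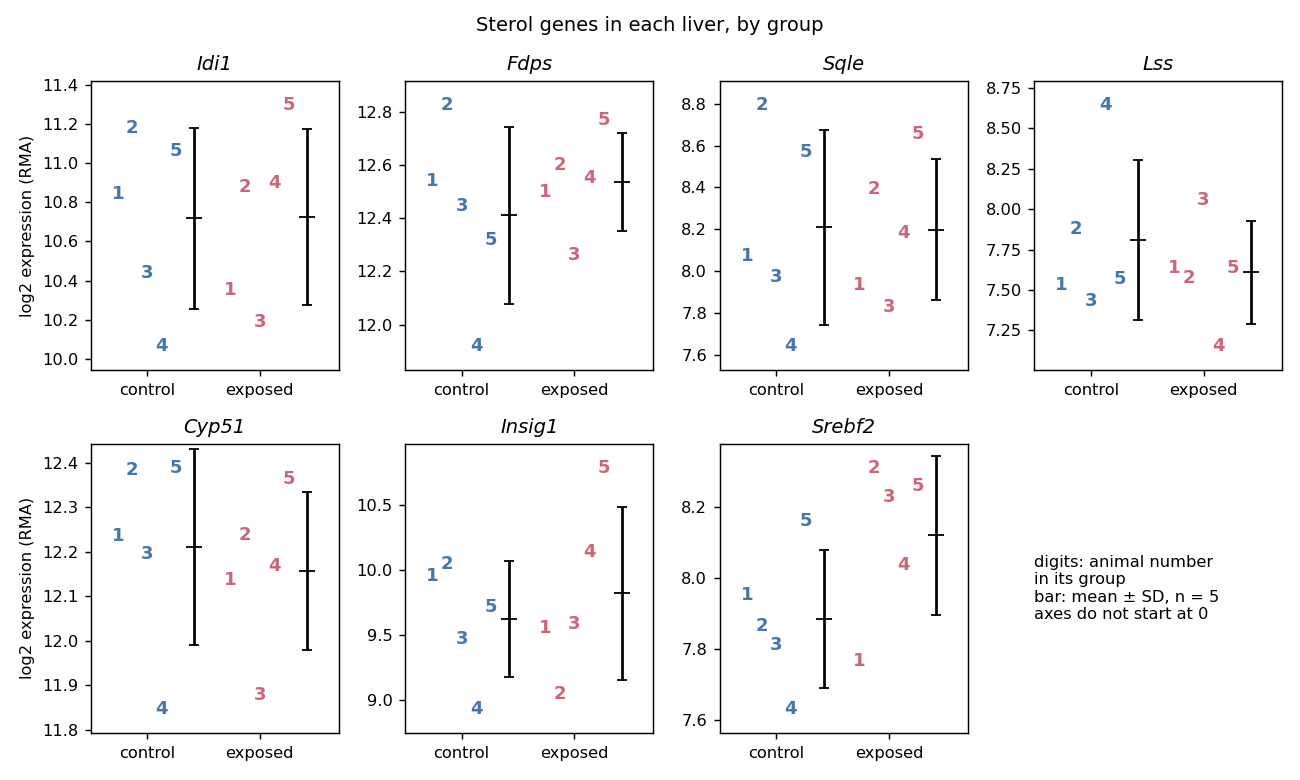
Log2 expression (y axes, which do not start at 0) of the 7 measured genes in 5 control and 5 exposed livers, each digit being an animal's number within its group and each bar the mean ± SD. Control animal 4 is the lowest of all 10 for 6 genes and the highest for Lss, and the groups overlap for every gene.

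Idi1 codes for the isomerase that turns isopentenyl into dimethylallyl pyrophosphate. It read 10.84, 11.18, 10.44, 10.06 and 11.06 in control animals 1 to 5. In exposed animals 1 to 5 it read 10.35, 10.88, 10.19, 10.90 and 11.30. High and low animals were found in both groups, with control animal 4 and exposed animal 3 at the bottom and exposed animal 5 and control animal 2 at the top. The highest liver held 2.35 times the signal of the lowest. Controls averaged 10.72 ± 0.46 and exposed livers 10.72 ± 0.45 (SD over 5 animals per group). Limma put the difference at 0.00 ± 0.24 (SE; adjusted p 0.998). The other Idi1 probe set correlated with it at 0.95 between animals and differed by -0.15 ± 0.22, or by -0.35 without control animal 4 and -0.013 without control animal 2.

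Fdps makes farnesyl pyrophosphate, the last intermediate that sterols share with the side chains of prenylated proteins. Controls read 12.54, 12.82, 12.45, 11.92 and 12.32. Exposed animals read 12.50, 12.60, 12.26, 12.55 and 12.77. The same pair of animals, control 4 and exposed 3, had the lowest values. The difference was 0.13 ± 0.14 (SE; limma adjusted p 0.936), and it was 0.0034 without control animal 4.

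Sqle, squalene epoxidase, carries out the first step that needs oxygen and limits the rate of the later pathway. Its values were 8.07, 8.79, 7.97, 7.64 and 8.57 in controls. They were 7.93, 8.39, 7.83, 8.18 and 8.66 in exposed animals. The order of the animals was close to that of Idi1, and the groups overlapped over most of their range. Controls averaged 8.21 ± 0.47 and exposed livers 8.20 ± 0.34 (SD over 5 animals per group), and limma put the difference at -0.01 ± 0.21 (SE; adjusted p 0.997).

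Cyp51 removes a methyl group from lanosterol. Controls read 12.24, 12.38, 12.20, 11.85 and 12.39. Exposed animals read 12.14, 12.24, 11.88, 12.17 and 12.36. Control animal 4 and exposed animal 3 again stood below the rest. The range was narrower than that of the genes above, at 1.46-fold from the lowest to the highest liver. Both probe sets, which correlated at 0.93, were slightly lower in exposed livers, by -0.05 ± 0.11 and -0.11 ± 0.14 (SE; limma adjusted p 0.965 and 0.942). Without control animal 4 these differences were -0.14 and -0.25, and without exposed animal 3 they were 0.017 and -0.043.

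Lss, lanosterol synthase, closes the sterol rings between the steps of Sqle and Cyp51, and it did not follow them. Controls read 7.53, 7.88, 7.43, 8.64 and 7.57. Exposed animals read 7.63, 7.57, 8.05, 7.15 and 7.63. Control animal 4 and exposed animal 3, the lowest for Sqle, Cyp51 and Idi1, were the highest for Lss. Both Lss probe sets showed this, with a correlation of 0.97 and with values of 7.97 and 7.57 for these animals on the other probe set, where the rest read 7.09 to 7.35. The groups differed by -0.20 ± 0.22 (SE; limma adjusted p 0.931), and by 0.0072 without control animal 4.

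Insig1 had the widest spread of the 7 genes, 3.62-fold between the extremes. Controls read 9.95, 10.04, 9.46, 8.93 and 9.72. Exposed animals read 9.55, 9.04, 9.58, 10.13 and 10.79. Exposed animal 5 lay above all others and exposed animal 2, which was among the upper animals for Sqle, was low. The difference was 0.20 ± 0.29 (SE; 95% interval -0.43 to 0.83; limma adjusted p 0.947), and it was -0.045 without exposed animal 5.

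Srebf2 gave the smallest p of the 11 probe sets. Controls read 7.95, 7.86, 7.81, 7.63 and 8.16. Exposed animals read 7.77, 8.31, 8.23, 8.04 and 8.26. Exposed animals 2, 3 and 5 lay above every control, exposed animal 4 lay within their range and exposed animal 1 near their lower end. Controls averaged 7.88 ± 0.19 and exposed livers 8.12 ± 0.22 (SD over 5 animals per group). Limma put the difference at 0.24 ± 0.12 (SE; 95% interval -0.02 to 0.49; p 0.0637, adjusted p 0.879). A dim second probe set, at 3.90 ± 0.12 in controls and 3.96 ± 0.18 in exposed animals, correlated with the first at -0.37.

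**Figure D2:**
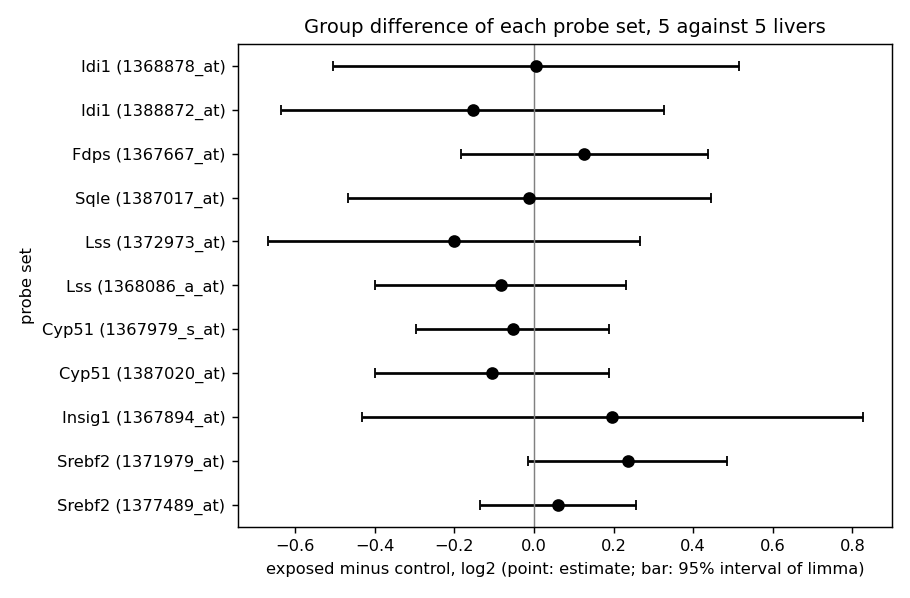
Difference between exposed and control livers on the log2 scale (x axis) for each of the 11 probe sets (y axis), with points for the estimates and bars for the 95% intervals of limma. All 11 intervals take in 0 and stay within a 2-fold change, and that of Insig1 is the widest, from -0.43 to 0.83.

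Limma called 0 of the 11 probe sets over all probe sets tested, beside 0% of all, and 0 had an unadjusted p under 0.05, beside 5.46%. The groups overlapped for all 11, where 0.892% of all probe sets did not overlap. The 95% interval stayed within a 2-fold change for 11 of 11 and within a 1.5-fold change for 8 of 11, against 99.5% and 97.3% of all probe sets. The count of called probe sets was 0 with each array left out in turn. 

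The shared variation between animals was then measured gene by gene, with group means removed so that a difference between groups could not make a correlation. Of 21 pairs of genes, 7 had a Pearson's r of at least 0.7, where 2.44% of all pairs of genes on the arrays did and 2.95% of pairs of genes above the median level. The median r was 0.59 against 0.00 over all pairs. No pair of the 21 had an r of -0.7 or below, where 2.33% of all pairs and 2.62% of those above the median level did. Each gene stands here for its probe set with the highest mean, which gave Lss and Cyp51 an r of -0.69. It was -0.74 with the second Lss probe set, -0.84 with the second Cyp51 probe set and -0.90 with both. These values were not tested. The 21 pairs share 7 genes and 10 animals and are not independent. On these probe sets Idi1, Sqle and Cyp51, with steps before and after the squalene branch, were the tightest group. The second Cyp51 probe set had an r of 0.81 with Idi1, 0.79 with Sqle and 0.84 with Fdps. The second Idi1 probe set had an r of 0.97 with Sqle, 0.95 with Cyp51 and 0.86 with Fdps. Between them, the second probe sets of Idi1 and Cyp51 had 0.89.

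Idi1 and Sqle had an r of 0.94 and a Spearman's rho of 0.98 over 10 animals (exact permutation within groups, two-sided p 0.000278 for both, adjusted 0.00454 for r and 0.0102 for rho). Idi1 and Cyp51 had an r of 0.92 and a rho of 0.95 (exact permutation p 0.000278 and 0.000764, adjusted 0.00454 and 0.0125). Sqle and Cyp51 had an r of 0.90 and a rho of 0.95 (exact permutation p 0.000278 and 0.000417, adjusted 0.00454 and 0.0102). Without the 2 animals farthest from the median of the first gene, r was 0.91, 0.89 and 0.90. These 3 pairs were those that passed, out of 49 relations computed together, and the smallest p that the 14400 orders allow is 6.94e-05.

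On the probe sets with the highest mean, Fdps followed the same animals less tightly. It had an r of 0.81 with Idi1, 0.79 with Sqle and 0.85 with Cyp51 (exact permutation p 0.00549, 0.0144 and 0.00653, adjusted 0.0640, 0.118 and 0.0640). The corresponding rho values were 0.72, 0.76 and 0.70 (adjusted 0.241 for each by exact permutation). Without control animals 2 and 4 the r with Sqle was 0.53.

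Insig1 had an r of 0.60 to 0.72 with Idi1, Fdps, Sqle and Cyp51, with adjusted exact permutation p values between 0.192 and 0.298. Srebf2 had an r of 0.59 with Idi1, 0.58 with Sqle, 0.48 with Cyp51 and 0.27 with both Fdps and Insig1, with adjusted exact permutation p values between 0.379 and 0.877. Without control animal 4 the r of Srebf2 was 0.44 with Idi1, 0.43 with Sqle, 0.22 with Cyp51, -0.12 with Fdps and 0.05 with Insig1. By its brighter probe set, the mRNA level of the regulator thus tracked its target genes less closely than Idi1, Sqle and Cyp51 tracked one another. Those were the tightest pairs in the same data, and the differences between these correlations were not tested. The active form of SREBP2 is a cleaved protein, which arrays do not measure.

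**Figure D3:**
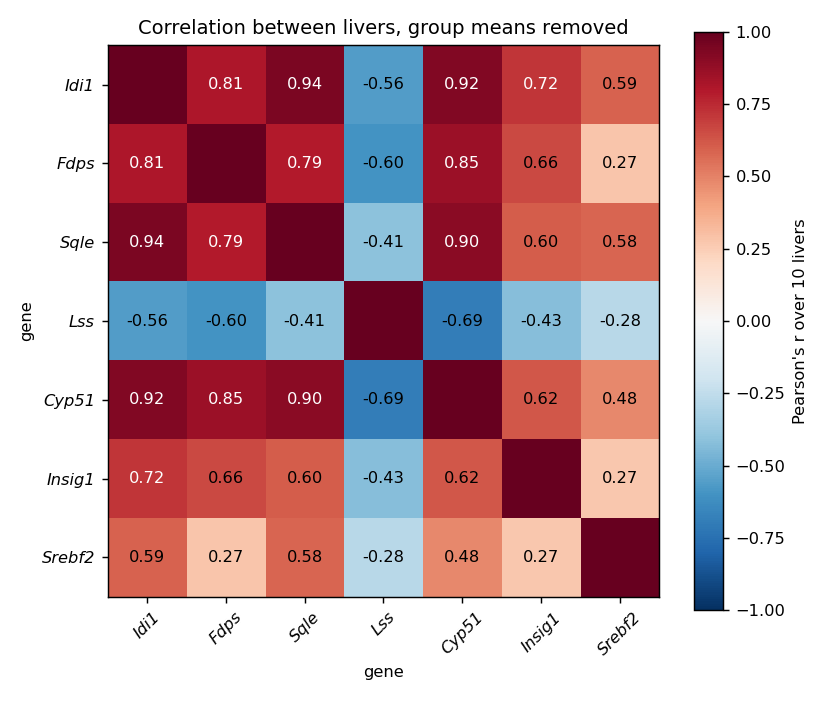
Pearson's r between each pair of the 7 genes over 10 livers with group means removed, from -1 (blue) to 1 (red), with the value in each cell. Idi1, Sqle and Cyp51 correlate at 0.90 to 0.94, and all 6 pairs with Lss are below 0.

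Lss correlated negatively with all 6 others. Its r was -0.56 with Idi1, -0.60 with Fdps, -0.41 with Sqle, -0.69 with Cyp51, -0.43 with Insig1 and -0.28 with Srebf2. None of these passed, with exact permutation p values from 0.0584 to 0.440 and adjusted values from 0.298 to 0.827. The rho values were weaker, from -0.36 to -0.13. The negative sign rested in large part on control animal 4: the median r of Lss with the others was -0.49 over all animals and -0.077 without that animal. Without both control animal 4 and exposed animal 3, the r was 0.55 with Cyp51, 0.29 with Idi1, 0.063 with Insig1 and 0.022 with Srebf2. For the pairs with Fdps and Sqle other animals were left out, as the farthest from the median of those genes. The r of Lss with Fdps was -0.51 without control animals 2 and 4. With Sqle it was -0.66 without control animal 2 and exposed animal 5.

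**Figure D4:**
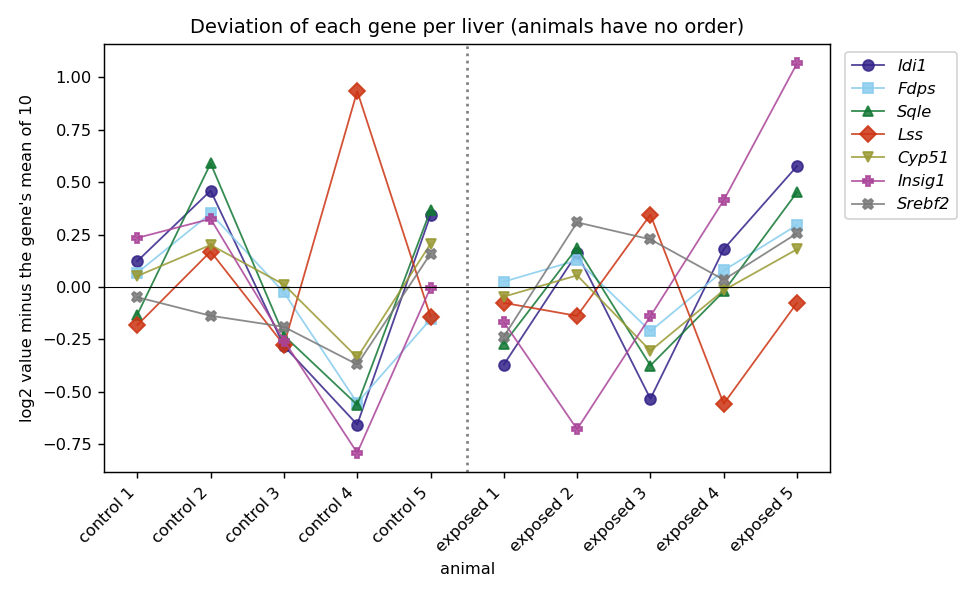
Deviation of each gene from its own mean of 10 livers on the log2 scale (y axis) in every animal (x axis), with 1 line per gene and group; lines join animals for reading only. Idi1, Fdps, Sqle and Cyp51 dip together in control animal 4 and exposed animal 3, where Lss peaks.

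The animals behind the pattern can be named. Control animal 4 ranked lowest of 10 for 6 of the 7 genes and highest for Lss. Exposed animals 1 and 3 were each among the lowest 3 for 4 genes. Control animal 2 and exposed animal 5 were each among the highest 3 for 6 genes, which for control animal 2 included Lss. A first principal component of the 7 genes held 69.1% of their variance within groups. Lss alone carried a negative weight (-0.31) and Idi1 the largest (0.44). Over all genes a first component held 21.6%, but shares over few and over many genes are unlike measures. Control animal 4 lay farthest out on the component of the 7 genes, at -0.66, and the component was not recomputed without it. These shares and weights are a description, with no test. Without control animal 4 the median r over the 21 pairs was 0.44, and 4 pairs reached 0.7, where 3.30% of all pairs of genes did. Idi1 and Sqle then had an r of 0.92, Idi1 and Cyp51 0.90, and Sqle and Cyp51 0.87.

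Values that could move with this pattern were set beside it. The log2 ratio of 3' to 5' signal, averaged over the control probe sets of Gapdh and beta-actin and a sign of RNA quality, was 0.626 in control animal 4 and 0.494 to 0.735 over all arrays. Its r with the 7 genes ran from -0.46 with Insig1 to 0.24 with Srebf2, with adjusted exact permutation p values of 0.455 or more. Without control animals 1 and 5, the farthest from the median ratio, its r with Idi1, Fdps, Sqle and Cyp51 was -0.51 to -0.55 and with Insig1 -0.77, and the part of RNA quality in the pattern beyond these values was not tested. The mean of the 8 measured Kupffer cell and macrophage markers deviated from its level over all animals by -0.30 in control animal 4 and -0.54 in exposed animal 3, both low for sterol genes. It deviated by 0.34 in control animal 2 and 0.29 in exposed animal 5, both high for them, but by -0.89 in control animal 5, whose Idi1 and Sqle values were high. It was 0.195 in control animal 3 and 0.16 in exposed animal 1, where Idi1, Fdps, Sqle, Cyp51 and Insig1 averaged -0.16 and -0.17. Exposed animal 2 had the highest, 0.41, with these genes at -0.03. Control animal 1 had 0.09 and exposed animal 4 0.25, with these genes at 0.07 and 0.13. The mean level of the markers per animal was 8.12 to 9.35 in controls and 8.46 to 9.41 in exposed animals, and their part in the pattern was not tested. The mean of the 5 hepatocyte markers deviated by -0.05 to 0.03 per animal, but these probe sets lie near the top of the array scale (albumin holds the highest value of all), where a change in the share of hepatocytes may not show.

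Dbp, a clock output gene with a strong daily rhythm in liver, ranged from 5.80 to 9.47 between animals. Its r with the 7 genes lay between -0.45 with Fdps and 0.26 with Lss, with adjusted exact permutation p values of 0.661 or more. Within groups of 5 animals, its r with Insig1 was -0.58 in controls and 0.89 in exposed animals. With Fdps it was -0.71 and 0.15, and the groups were less far apart for the other genes. Control animal 4 and exposed animal 3, low for sterol genes, read 8.67 and 8.65 for Dbp, and exposed animal 5, high for them, read 9.47. Fasn, fatty acid synthase and a target of SREBP1, had an r between -0.09 with Cyp51 and 0.38 with Srebf2 (adjusted exact permutation p 0.695 or more). Cyp7a1, which starts the conversion of cholesterol to bile acids, ranged from 7.11 to 10.82 and had its highest r with Lss, at 0.58 (rho 0.73; exact permutation p 0.115 and 0.0365, adjusted 0.395 and 0.241).

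The other enzymes of sterol synthesis, a list of 16 genes of which 14 were measured, shared the pattern in part. Ranked by the median r with the 7 genes among 9659 genes above the median level, Msmo1, a sterol C4 demethylase, came first at 0.86. Next came Mvk, mevalonate kinase, at 0.86, Hsd17b7, a sterol ketoreductase, at 0.85, and Acat2, a cytosolic thiolase that supplies acetoacetyl-CoA, at 0.84. Without control animal 4 these values were 0.79, 0.81, 0.70 and 0.75. Msmo1 read 11.36, 11.75, 11.02, 10.77 and 11.39 in controls, and 11.16, 11.39, 11.13, 11.41 and 11.86 in exposed animals. As for Idi1, control animal 4 was lowest and exposed animal 5 highest.

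Of the 14 enzymes, 8 had a median r of at least 0.5 with the 7 genes, against 4.51% of all 14217 genes, and 7 were among the first 100 in the ranking. Without control animal 4 it was 6 of 14 against 5.23%. Mvd, which makes isopentenyl pyrophosphate, had a median r of 0.72, Nsdhl, a partner of Msmo1 in C4 demethylation, 0.70 and Fdft1, squalene synthase, 0.66. Others stood apart from the shared pattern. Pmvk, the kinase between Mvk and Mvd, had a median r of 0.05, Ebp, a sterol isomerase, 0.04, Tm7sf2, a sterol reductase, 0.03 and Ggps1, which diverts farnesyl to geranylgeranyl pyrophosphate, -0.38. All 14 enzymes had a negative r with Lss, as did 52.9% of all genes, but only 7 of 14 without control animal 4.

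**Figure D5:**
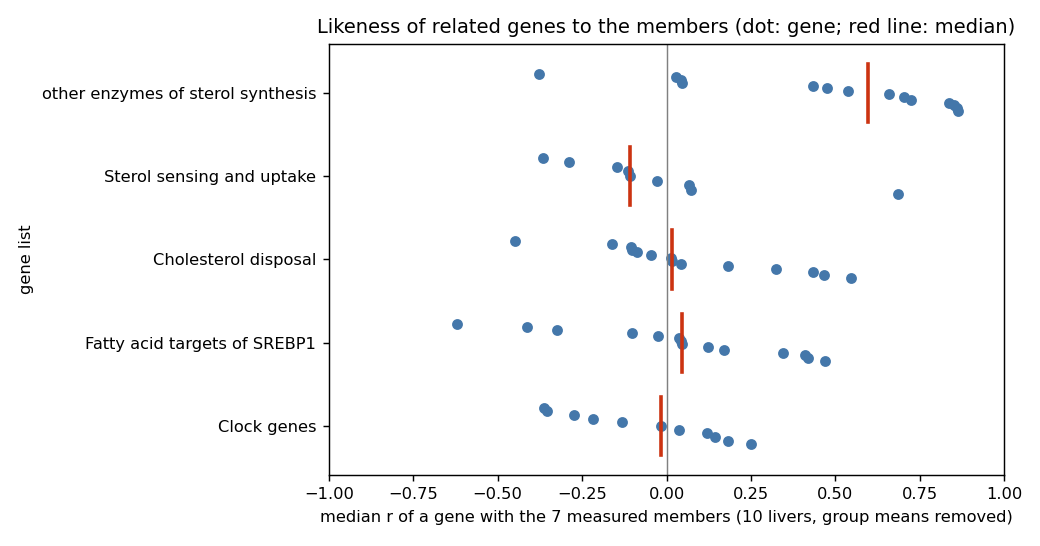
Median Pearson's r of each listed gene with the 7 measured genes over 10 livers (x axis, group means removed), by gene list (y axis), with dots for genes and red lines for list medians. Other enzymes of sterol synthesis have a median of 0.60, while the remaining 4 lists lie between -0.11 and 0.05.

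The remaining 6 of the 10 most similar genes were in no list of sterol genes. They were Higd1a, Dlx3, Vdac3, Atp6ap2, Klhl40 and Mypop, with median r values of 0.82 down to 0.77, and between 0.68 and 0.77 without control animal 4. Higd1a, a mitochondrial protein, ranged from 10.20 to 10.55 and Vdac3, a mitochondrial outer membrane channel, from 11.21 to 11.40. Dlx3 and Mypop had wider ranges, from 6.45 to 6.92 and from 5.29 to 5.82. The most opposite genes were Phyhd1 (-0.82), Ndrg3 (-0.80), Zbtb7a (-0.80), Pxdc1 (-0.79) and Camlg (-0.79). Camlg, which helps to insert proteins into the endoplasmic reticulum membrane, had an r of 0.85 with Lss, and its median r with the 7 genes was -0.49 without control animal 4.

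Between exposed and control livers, none of these lists had a gene that passed limma over all probe sets. Among the 14 other enzymes of sterol synthesis, 6 were higher and 8 lower, with a median difference of -0.01 and 0 at an unadjusted p under 0.05, beside 5.46% of all probe sets. Those with the smallest p were Nsdhl at 0.12 ± 0.08 (SE), Ggps1 at -0.08 ± 0.08, Fdft1 at 0.10 ± 0.11 and Msmo1 at 0.13 ± 0.18. All had a limma adjusted p between 0.894 and 0.945.

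Of 9 measured genes of sterol sensing and uptake, 4 were higher and 5 lower, with 0 at an unadjusted p under 0.05. Stard4, a carrier of cholesterol within cells, was the one gene of this list with a median r of at least 0.5, at 0.68, and it differed by 0.22 ± 0.16 (SE). Lrp1, a receptor for chylomicron remnants, differed by -0.20 ± 0.13, Mbtps2, a protease that frees SREBP, by -0.12 ± 0.08 and Mylip, a ubiquitin ligase induced by sterols, by 0.12 ± 0.14. Of 14 genes of cholesterol disposal, 4 were higher and 10 lower, and 1 had an unadjusted p under 0.05. That was Nceh1, at -0.55 ± 0.13 (limma adjusted p 0.879), followed by Ces1d at -0.25 ± 0.14, Cyp27a1 at -0.14 ± 0.11 and Lcat, which esterifies cholesterol in plasma, at -0.05 ± 0.05. Cyp7a1 differed by -0.19 ± 0.73.

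Fatty acid targets of SREBP1 were higher in exposed livers for 13 of 14 genes, with a median difference of 0.24, where 6978 of all 14217 genes were higher. The 14 genes were measured in the same 10 livers and are not independent. Their mean deviated by 0.24, 0.006, 0.30, -0.18 and 0.21 in exposed animals 1 to 5. In controls it deviated by -0.26 to 0.08, so exposed animals 2 and 4 lay within the controls. Kupffer cell markers were also higher for 8 of 8 genes (median difference 0.22) and lymphocyte markers for 6 of 7. The genes within each of these lists are not independent either. Control animal 5 was lowest for all 8 Kupffer cell markers, with a mean deviation of -0.89, and exposed animal 3 stood at -0.54. The part of these markers in the differences of the fatty acid genes was not tested. Whether the fatty acid genes differ from those of sterol synthesis was not tested either. Limma called 0 over all probe sets and gave 1 at an unadjusted p under 0.05, Acly at 0.32 ± 0.14 (SE; adjusted p 0.879). Pnpla3 differed by 0.87 ± 0.41, Elovl6 by 0.33 ± 0.16, Fasn by 0.31 ± 0.16 and Fads2 by 0.26 ± 0.13. Between animals these 14 genes had a median r of 0.05 with the 7 sterol genes, and 0 reached 0.5. They ranged from -0.62 for Scd to 0.47 for Me1, with 5 of 14 below 0. Of 11 clock genes, 5 were higher and 6 lower, with 0 at an unadjusted p under 0.05. Clock differed by -0.22 ± 0.11, Bmal1 by -0.53 ± 0.30, Cry1 by -0.28 ± 0.18, Per2 by 0.10 ± 0.07 and Dbp by 0.75 ± 0.67.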

How the data were processed

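Liver RNA from 10 rats was hybridised to Affymetrix 3' arrays. The deposited values are log2 expression per probe set. Per the submitters' processing notes, the authors used R 2.8.1 and RMA, which corrects background and brings the arrays to one distribution, so a shift shared by most genes is removed. The values, from 2.19 to 15.0, fit a log2 scale. The number of arrays limits precision.

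Of 31099 probe sets, 57 control sets were left out. The platform annotation named 1 gene for 20826 probe sets and several for 436, and 9780 are unnamed here. A gene stands for its probe set with the highest mean. Group differences were estimated by lmFit and eBayes of limma 3.58.1 (R 4.3.3), two-sided, with Benjamini-Hochberg adjustment over 31042 probe sets. Correlations used values with group means removed and an exact two-sided permutation test over all 14400 orders within groups, adjusted over 49 relations (21 gene pairs, and 7 genes each with Fasn, Cyp7a1, Dbp and the RNA quality ratio). Relations planned with genes not analysed here were left out. The tests were checked on simulated data. Named were the members, Fasn, Cyp7a1, Dbp, up to 4 genes per list with the smallest p, the 10 genes most like the members and the 5 most opposite. Some list genes are also named for their median r with the members, and Nr1d2 and Tef for their order over the animals. The members and lists were chosen with earlier results of these data known. Alternatives are given in the closing section.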

Additional observations from a re-analysis of the deposited data

Results flagged for a closer look

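Within each group of 5 animals, a value was taken as standing apart when its gap to the nearest animal exceeded 0.71 of the range of the group. Of 144 groups of values examined, 15 held such a value, and chance alone gives about 1 in 20. They cover the genes named by p, by likeness or in advance, and up to 4 markers of each cell type. The groups come from the same 10 livers and many of the genes vary together, so this count cannot show an excess. Among the 11 probe sets of the sterol genes it was 3 of 22 groups. Control animal 4 read 7.97 on the second Lss probe set (other controls 7.17 to 7.35) and 9.70 on the second Cyp51 probe set (10.33 to 10.48). Exposed animal 3 read 9.91 on that Cyp51 probe set (10.16 to 10.25).

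Among the genes most like the sterol genes, control animal 4 was low for Dlx3 at 6.45 (6.63 to 6.70) and exposed animal 5 high for Klhl40 at 6.79 (6.64 to 6.67). Among the most opposite, control animal 4 was high for Ndrg3 at 6.63 (6.27 to 6.36) and for Camlg at 7.91 (7.53 to 7.61). These genes were chosen for their correlation over the same animals.

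In the lipid lists, Cyp27a1 read 11.96 in exposed animal 2 (11.53 to 11.62), Fads2 11.12 in the same animal (11.52 to 11.69) and Acly 10.95 in exposed animal 4 (11.48 to 11.56). Among cell type markers, the Kupffer cell genes Clec4f and C1qb read 10.11 (10.81 to 10.95) and 9.01 (9.80 to 9.95) in exposed animal 3, and C1qb 8.49 in control animal 5 (9.49 to 9.82). The T cell gene Cd3d read 4.52 in exposed animal 1 (4.73 to 4.81), and Stab2, of sinusoidal endothelium, 8.99 in exposed animal 2 (8.72 to 8.78).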

How the results depend on the processing

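The count of sterol probe sets called by limma was 0 under every alternative run, and 0 to 1 of all probe sets were called with each array left out in turn, the 1 without exposed animal 1. Some differences changed sign without becoming calls. Idi1 was -0.018 with arrays centred on the median and -0.037 with RNA quality as a covariate, Insig1 -0.0030 with that covariate, and Sqle 0.027 after quantile normalization. Leaving out 1 animal at a time moved the differences from -0.16 to 0.14 for Idi1, -0.15 to 0.13 for Sqle, -0.31 to 0.0072 and -0.15 to 0.064 for the Lss probe sets, -0.14 to 0.017 for Cyp51 and -0.045 to 0.39 for Insig1. Without exposed animal 5 and exposed animal 3, respectively, the median difference was -0.10 and 0.14.

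The median r over the gene pairs, 0.59, was 0.50 with group means left in, 0.66 without Lss, an alternative added after the data were seen, and 0.44 (without control animal 4) to 0.66 (without exposed animal 3) with each animal left out. With the replicate number as a block it was 0.35. Same-numbered animals correlated at -0.07 to 0.09, and 0 of 5 controls correlated best with their own number. This measure cannot show whether the numbers mark a factor that acts on few genes. In both groups animals 4 and 5 read highest for Dbp, Nr1d2 and Tef and lowest for Bmal1. The other measured clock genes, Per2 among them, did not show such an order in both groups. Whether the numbers mark a shared factor was not tested. The main fit called 0 probe sets, so the block had no call to remove, and it added none. The tests of single gene pairs were not rerun with it. The cause of these shifts was not tested. Array weights, a trended and robust prior and a filter on low values, which dropped the dim Srebf2 probe set, reversed no difference. TCACCCCA and the correlations without control animal 4 were also chosen after seeing the data. With 5 animals per group, group differences smaller than the intervals given cannot be resolved.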
